A study of Mus musculus with 107 samples.

Results

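Bergmann glia of the mouse cerebellum were profiled by comparing the RNA held on their own ribosomes with the RNA left behind in the same line of mice. All 3 arrays labelled as TRAP and all 3 labelled as unbound RNA of Bergmann glia were used, 6 of the 76 TRAP and 31 unbound arrays of the series. TRAP, translating ribosome affinity purification, pulls a tagged ribosomal protein, and the mRNA its ribosomes carry, out of a whole tissue homogenate. The series covers 24 such populations of the central nervous system on Affymetrix mouse arrays. The unbound fraction stands for the whole tissue.

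Bergmann glia came from BAC transgenic mice in which the regulatory region of septin4 drives the tag (line DS152, cerebellum), with 3 TRAP and 3 unbound arrays of that line. Purkinje neurons came from pcp2 lines DR166 and DR168 (cerebellum), with 3 TRAP arrays of each line and 3 unbound arrays of DR168. Cortical astrocytes came from aldh1l1 lines JD130 and JD133, with 4 TRAP and 2 unbound arrays. The labels give no age, sex or strain. Bergmann glia rest on a single BAC line, so an effect of where the transgene landed cannot be told apart from the cell type. The series text calls the replicates independent TRAP preparations and does not say whether a preparation pooled animals. With 3 arrays in a group, their number limits the precision. In bulk RNA, fewer cells of a type and less RNA per cell cannot be told apart.

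Bergmann glia are the radial astrocytes of the cerebellum. Their cell bodies sit beside Purkinje cells and their fibres cross the molecular layer to the pial surface, wrapping the synapses that parallel and climbing fibres make on Purkinje dendrites. They are known for glutamate uptake through the transporter GLAST (Slc1a3), for AMPA receptors that lack the GluA2 subunit, and for their response to Sonic hedgehog released by Purkinje cells. Septin4 encodes a GTP-binding protein of the septin cytoskeleton. Wif1 encodes a secreted protein that binds and inhibits Wnt ligands.

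The regulatory region of Septin4 drives the tag, and Wif1 had the largest rise by log2 difference. The regions upstream of both are shown as 250 bases before a start site from RefSeq (GRCm38.p6). Septin4 lies at chr11:87566689-87590543 and has 4 start sites in that table. The start shown is the one whose upstream bases (chr11:87580811-87581060, plus strand) hold the SOX-type word ACAAAG or its complement, printed in capitals. Wif1 lies at chr10:121034004-121100642, and its upstream bases (chr10:121033754-121034003, plus strand) hold no match to this word, have 62.8% G and C and contain 21 CpG pairs.
Septin4 upstream: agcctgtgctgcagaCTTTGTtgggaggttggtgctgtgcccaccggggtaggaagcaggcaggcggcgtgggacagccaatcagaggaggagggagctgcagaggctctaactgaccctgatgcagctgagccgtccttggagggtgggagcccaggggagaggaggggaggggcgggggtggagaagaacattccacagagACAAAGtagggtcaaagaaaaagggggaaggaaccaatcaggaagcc
Wif1 upstream: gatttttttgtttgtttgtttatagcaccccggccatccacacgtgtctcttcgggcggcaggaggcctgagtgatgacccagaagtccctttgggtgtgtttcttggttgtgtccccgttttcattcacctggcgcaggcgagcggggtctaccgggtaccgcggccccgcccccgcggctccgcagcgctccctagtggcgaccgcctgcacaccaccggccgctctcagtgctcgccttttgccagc
The word was searched on both strands and lies in 15.5% of the 1606 genes higher in TRAP that have a promoter in the table, against 14.1% of the 8582 tested genes and 16.5% of all 32851 promoters. In all, 15 motifs were searched, and their shares in the higher genes differed from those in all tested genes by -0.51 to 1.9 percentage points. These matches are descriptions of letters and not of binding.

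Values are log2 intensities after each group was shifted so that 18 biotinylated control probe sets had the same mean. That mean was 11.75 in Bergmann TRAP arrays and 11.06 in their unbound arrays before the shift. A level of 6 (an intensity of 64) was the minimum mean that a gene needed in one of the groups compared. Actin 3′/5′ signal ratios, a measure of RNA integrity and amplification, were 7.12, 13.7 and 14.3 on the TRAP arrays and 18.1, 44.1 and 38.3 on the unbound arrays. The same ratios for GAPDH overlapped, at 5.55, 9.15 and 7.92 on the TRAP arrays and 5.82, 11.1 and 11.2 on the unbound arrays. The B2 repeat probe read 10.20 on every TRAP array and 15.49, 14.91 and 14.83 on the unbound arrays, all higher. TRAP replicates 2 and 3 lay closer to each other (SD of their differences 0.142) than either did to replicate 1 (0.354 and 0.342). TRAP replicate 1 lay at least 2 log2 units from the mean of the other 2 in 12 of 9054 genes, above that mean in 3 and below it in 9. The choroid plexus gene Ttr, a thyroid hormone carrier, read 2.75 there and 12.28 and 11.62 in the others, and the macrophage gene Adgre1 read 3.59 there and 9.10 and 8.78 in the others. Results that rest on this array are given with and without it.

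Of 10488 genes tested, 1982 were higher in Bergmann TRAP RNA than in unbound RNA (18.9% of those tested) and 4290 were lower (40.9%), together 59.8%, at an adjusted p under 0.05 and at least 2-fold by limma. The arrays of the groups did not overlap in 86.2% of tested genes, 30.4% with TRAP RNA higher and 55.8% with it lower. The median difference of all tested genes was -0.57, and it was 0.18 without the control scaling, 0.04 with quantile normalization and 0.36 with each array centred on its median. Higher genes made up 31.6% of calls, against 53.5%, 51.2% and 59.2% under those other scalings. For this reason calls that held under all 4 scalings are counted beside the others: 1965 higher (18.7%) and 2385 lower (22.7%). Of the lower genes, 1439 had a TRAP mean under 6, and of the higher genes, 513 had an unbound mean under 6, so their folds are lower bounds against that minimum. Among 1333 tested probe sets with no gene symbol, 12.5% were higher and 61.1% lower.

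Both Septin4 and Wif1 were higher in the TRAP fraction. Septin4 drives the tag and Wif1 was chosen with earlier results of these data known. Their values therefore describe the fraction and do not test the cell type label. Septin4 read 16.07, 15.79 and 15.74 in TRAP RNA and 13.61, 13.39 and 13.41 in unbound RNA. All TRAP arrays lay above all unbound arrays. The means were 15.87 ± 0.17 and 13.47 ± 0.12 (SD, n = 3 each), a 5.26-fold rise (log2 difference 2.39, SE 0.23, adjusted p = 1.96e-15), and the second expressed probe set of Septin4 differed by 1.90. Wif1 read 12.43, 11.18 and 11.12 in TRAP RNA and 2.93, 4.19 and 4.56 in unbound RNA. It was below the minimum on every unbound array and above it on every TRAP array. The means were 11.58 ± 0.74 and 3.89 ± 0.85 (SD, n = 3 each), at least 47.8-fold (log2 difference 7.69, SE 0.26, adjusted p = 1.62e-40).

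All 16 genes of the Bergmann glia list rose in TRAP RNA, all of them under all 4 scalings and with no overlap between the arrays. Of all tested genes, 18.9% were called higher, 18.7% under all 4 scalings, and 30.4% were higher with no overlap. Their median difference was 2.93, which is 3.50 above the median of all tested genes. The summed intensity of the list was 331000 to 389000 on the TRAP arrays and 67700 to 70000 on the unbound arrays. The list was chosen with earlier results of these data known, so the count describes it and does not test it.

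**Figure D1:**
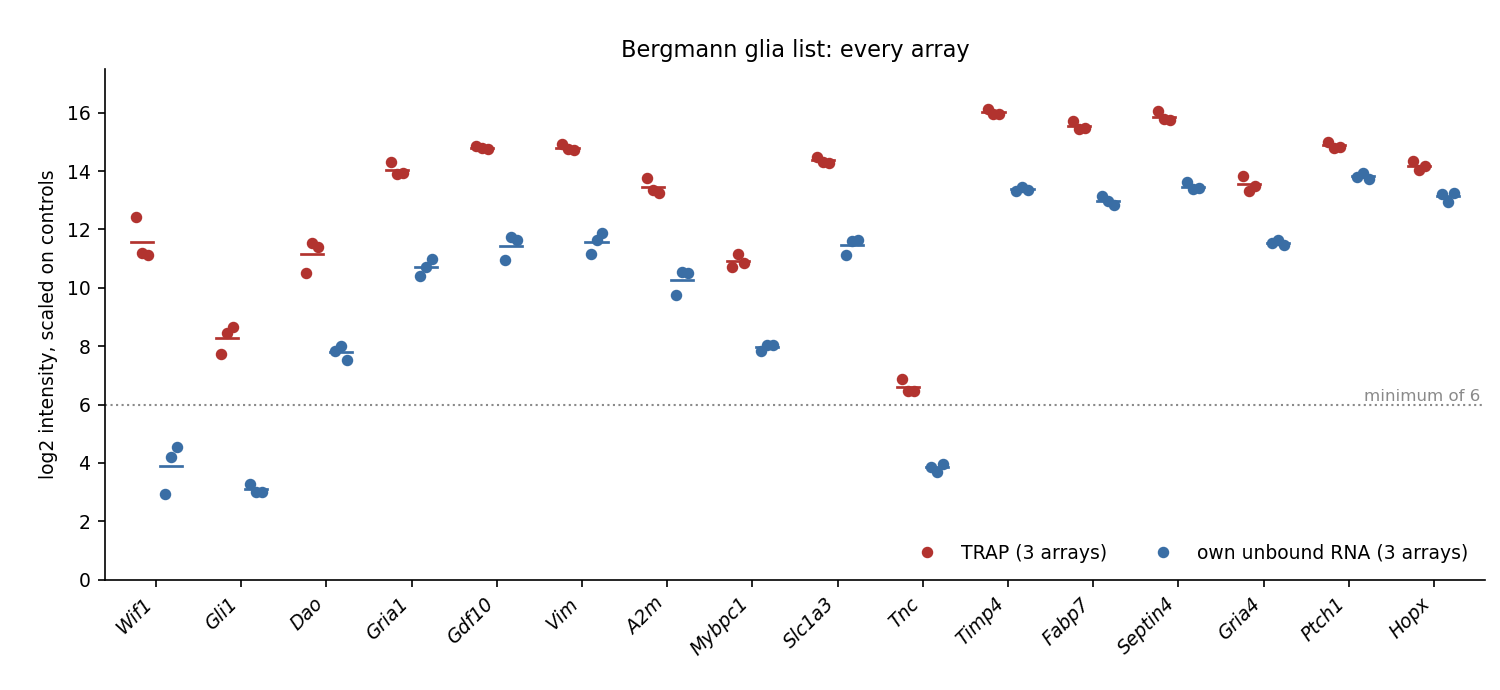
Log2 intensity after control scaling (y axis) of the 16 Bergmann glia genes (x axis, largest difference first) on each of the 3 TRAP and 3 unbound arrays, 1 point per array with a bar at the mean and a dotted line at the minimum of 6. In every gene the TRAP points lie above the unbound points, most widely in Wif1 (11.12 to 12.43 against 2.93 to 4.56) and most narrowly in Hopx (14.04 to 14.34 against 12.94 to 13.25).

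Among the transporters and enzymes of the list, Slc1a3, the glutamate transporter GLAST, read 14.50, 14.32 and 14.29 in TRAP RNA and 11.12, 11.60 and 11.64 in unbound RNA, a 7.55-fold rise. Dao, the D-amino acid oxidase that degrades D-serine, read 10.52, 11.55 and 11.40 in TRAP RNA and 7.84, 8.01 and 7.52 in unbound RNA, a 10.3-fold rise. TRAP replicate 1 was the lowest of the TRAP arrays for Dao and the highest for Slc1a3. Fabp7, the brain fatty acid binding protein, averaged 15.55 ± 0.16 in TRAP RNA and 12.98 ± 0.15 in unbound RNA (SD, n = 3 each), a 5.95-fold rise. A2m, a protease-trapping macroglobulin, rose 9.10-fold. Timp4, an inhibitor of matrix metalloproteinases, read 16.12, 15.96 and 15.96 against 13.32, 13.45 and 13.37. These are among the brightest values measured, and the difference was 6.21-fold.

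Among the secreted and signalling members, Gdf10, a ligand of the TGF-beta superfamily also named BMP3B, read 14.86, 14.79 and 14.75 in TRAP RNA and 10.97, 11.75 and 11.63 in unbound RNA, a 10.2-fold rise. Gli1, a transcription factor and a direct target of Hedgehog signalling, read 7.72, 8.46 and 8.64 in TRAP RNA and 3.29, 2.99 and 3.01 in unbound RNA, at least 4.84-fold. Ptch1, the Hedgehog receptor, rose 2.09-fold (14.88 ± 0.10 in TRAP RNA and 13.82 ± 0.10 in unbound RNA, SD, n = 3 each). The homeodomain-only cofactor gene Hopx read 14.34, 14.04 and 14.17 in TRAP RNA and 13.22, 12.94 and 13.25 in unbound RNA, a 2.07-fold rise and the smallest of the list. Hopx fell short of the 2-fold threshold without TRAP replicate 1 (0.97), without unbound replicate 2 (0.95) and with all 7 cerebellar unbound arrays (0.99). Another expressed probe set of Hopx rose by 4.56 log2 units.

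The intermediate filament gene Vim, known in radial glia, rose 9.43-fold, and the matrix glycoprotein gene Tnc read 6.86, 6.48 and 6.48 in TRAP RNA and 3.87, 3.69 and 3.97 in unbound RNA, at least 1.52-fold. Mybpc1, a myosin-binding protein best known in muscle, read 10.72, 11.16 and 10.86 against 7.82, 8.04 and 8.04, a 7.72-fold rise. Another expressed probe set of Mybpc1 went the opposite way (-6.16). With the mean over all probe sets of a gene in place of the brightest one, the difference of Mybpc1 was -0.92 and that of Ptch1 was -0.11.

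The AMPA receptor subunits split. Gria1 (GluA1) read 14.30, 13.91 and 13.95 in TRAP RNA and 10.39, 10.73 and 10.99 in unbound RNA, a 10.2-fold rise. Gria4 (GluA4) read 13.84, 13.33 and 13.51 in TRAP RNA and 11.53, 11.63 and 11.46 in unbound RNA, a 4.05-fold rise. Gria2 (GluA2), the subunit that makes the receptor channel impermeable to calcium, went the other way. It read 5.39 on each of the 3 TRAP arrays and 10.98, 10.21 and 10.53 in unbound RNA, at least 23.8-fold lower. Gria3 (GluA3) read 2.90, 2.91 and 2.91 in TRAP RNA and 10.60, 10.48 and 10.52 in unbound RNA, at least 23.2-fold lower. No array of either group overlapped the other group for any of these subunits, as in 86.2% of all tested genes. The calls held under all 4 scalings, where 18.7% of all tested genes were higher and 22.7% lower.

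Of 19 listed receptors of glia, 15 were measured and 11 tested. Of these 8 were higher (72.7%, against 18.9% of all tested genes) and 3 lower (27.3%, against 40.9%), all 11 under all 4 scalings. Ntsr2, the low-affinity neurotensin receptor of astrocytes, read 14.48, 14.44 and 14.48 in TRAP RNA and 9.95, 10.63 and 10.54 in unbound RNA, a 17.1-fold rise. Hrh1, the histamine H1 receptor, read 8.56, 8.65 and 8.56 against 4.83, 5.13 and 5.38, at least 6.02-fold. The endothelin receptor gene Ednrb (2.44), the GABA-A receptor subunit genes Gabrg1 (2.22) and Gabra2 (1.94) and the metabotropic glutamate receptor gene Grm3 (1.47) also rose, on the scale of the log2 difference. Gabbr1, a GABA-B receptor subunit gene, fell by 2.22.

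Of 29 listed astrocyte genes, 28 were measured and tested, 25 higher (89.3%) and none lower, the same number under all 4 scalings. Among all tested genes 18.9% were higher and 40.9% lower, and 18.7% and 22.7% under all 4 scalings. Their median difference was 1.91, or 2.48 above that of all tested genes. Hepacam, a cell adhesion protein of astrocyte contacts, read 11.93, 11.74 and 11.74 in TRAP RNA and 6.57, 7.40 and 7.25 in unbound RNA, a 26.5-fold rise. Slc7a10, a transporter of D-serine and small neutral amino acids, rose 12.3-fold. Acsbg1, an acyl-CoA synthetase, rose 16.2-fold. The 3 members that were not called were named after their values were seen. Aqp4, the water channel of endfeet, differed by 0.92, the apolipoprotein gene Clu by 0.41, and Aldoc, the aldolase also present in Purkinje cells, by 0.09. Aldoc read 15.35, 15.14 and 15.10 in TRAP RNA and 15.34, 15.04 and 14.94 in unbound RNA, so its arrays overlapped.

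**Figure D2:**
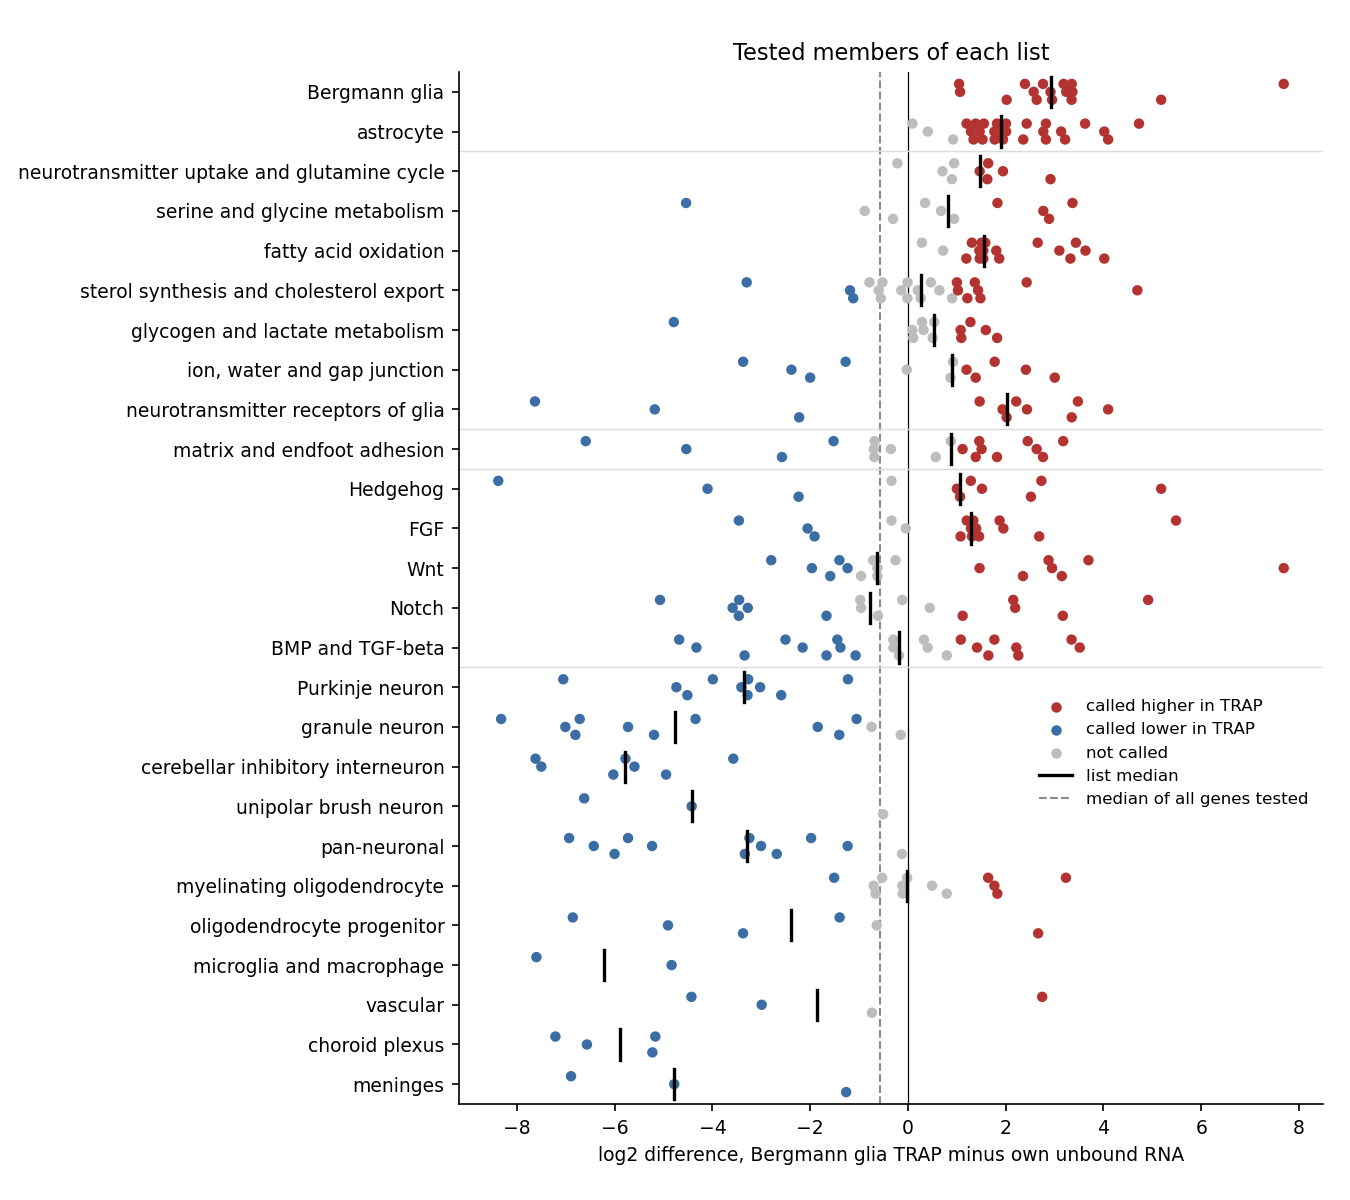
Log2 difference of TRAP minus unbound RNA (x axis) for each tested gene of each list (y axis), 1 point per gene coloured by its call, with a black bar at the list median and a dashed line at the median of all tested genes (-0.57). The Bergmann glia and astrocyte genes lie to the right of zero, the neuronal, choroid plexus and microglial genes mostly far to its left, and the myelin genes on both sides of it, between -1.51 and 3.23.

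Genes of amino acid handling rose in part. For neurotransmitter uptake and the glutamine cycle, 13 were listed, 12 measured and 9 tested, of which 5 were higher (55.6%) and none lower. The shares of all tested genes were 18.9% higher and 40.9% lower. Glul, the glutamine synthetase that converts glutamate to glutamine, read 13.76, 13.56 and 13.52 in TRAP RNA and 11.67, 11.60 and 11.71 in unbound RNA, a 3.85-fold rise. The glutamine exporter gene Slc38a3 rose 3.12-fold and the glycine transporter gene Slc6a9 rose 3.08-fold. For serine and glycine metabolism, 14 were listed and 10 were measured and tested, with 4 higher (40%) and 1 lower (10%). Phgdh, the first enzyme of serine synthesis from glucose, read 12.60, 12.62 and 12.32 in TRAP RNA and 9.22, 9.64 and 10.02 in unbound RNA, a 7.40-fold rise. Psat1, the next enzyme of that pathway, rose by 1.83 log2 units, and the glycine-cleaving decarboxylase gene Gldc rose 6.82-fold. Shmt1, the cytosolic enzyme that interconverts serine and glycine, read 2.47 on each TRAP array and 6.71, 6.94 and 7.36 in unbound RNA, at least 2.01-fold lower. Shmt1 was the 1 lower gene and was not called under all 4 scalings.

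All 18 listed genes of fatty acid oxidation and its regulation were tested. Of these 16 were higher (88.9%) and none lower, with the same counts under all 4 scalings. Among all tested genes 18.9% were higher and 40.9% lower, and 18.7% and 22.7% under all 4 scalings. The median difference of the list was 1.56 (2.13 above that of all tested genes). Cpt1a, which carries fatty acids into the mitochondrial pathway, read 9.35, 9.50 and 9.50 in TRAP RNA and 6.02 on each unbound array, a 10.8-fold rise. Acadl, a dehydrogenase of the first step, read 12.57, 12.17 and 12.05 in TRAP RNA and 8.85, 8.86 and 9.12 in unbound RNA, a rise of 3.32 log2 units. Acads, the short-chain enzyme of that step, had 6.61, 6.35 and 6.36 against 2.81 on each unbound array, at least 1.36-fold higher. The transcription factor gene Ppara, a regulator of this pathway, rose at least 1.52-fold. Etfdh (0.72) and Acadvl (0.29) were not called.

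Sterol genes were mixed: of 26 listed, 23 were measured and tested, 8 were higher (34.8%) and 3 lower (13%), and 12 were not called. The shares of all tested genes were 18.9% higher and 40.9% lower. Lcat, which esterifies cholesterol on lipoproteins, read 13.09, 12.78 and 12.76 in TRAP RNA and 7.79, 8.53 and 8.22 in unbound RNA, a 25.9-fold rise. Apoe, the lipoprotein component secreted by astrocytes, rose 5.38-fold, and Dhcr7, the last enzyme of cholesterol synthesis, rose 2.80-fold. The cholesterol exporter gene Abcg1 read 7.62, 7.68 and 7.61 against 10.93, 11.04 and 10.83, 9.83-fold lower, and was the 1 sterol gene lower under all 4 scalings. For glycogen and lactate, 14 were listed and measured and 12 tested, of which 5 were higher (41.7%) and 1 lower (8.33%). The glycogen phosphorylase gene Pygm rose 3.54-fold, Ugp2, which makes the glucose donor for glycogen, rose 3.02-fold, and the lactate dehydrogenase gene Ldha rose 2.43-fold. Slc16a7, the lactate transporter MCT2 known in neurons, read 2.37, 2.45 and 2.44 against 7.04, 7.56 and 7.04, at least 2.31-fold lower.

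Ion and gap junction genes, 16 listed, 13 measured and 12 tested, were 5 higher (41.7%) and 4 lower (33.3%), of which 5 and 3 held under all 4 scalings. The shares of all tested genes were 18.9% higher and 40.9% lower. Kcnj10, the Kir4.1 potassium channel of astrocytes, read 13.09, 12.60 and 12.76 in TRAP RNA and 10.42, 10.42 and 10.38 in unbound RNA, a 5.33-fold rise, and its partner gene Kcnj16 rose 8.02-fold. The chloride cotransporter gene Slc12a2 was 5.21-fold lower. The sodium pump subunit gene Atp1b1, which neurons express, was 10.3-fold lower. Matrix and endfoot adhesion genes, 27 listed, 26 measured and 19 tested, were 9 higher (47.4%) and 4 lower (21.1%), of which 9 and 3 held under all 4 scalings. Itgb8, an integrin chain that activates TGF-beta, read 13.14, 13.04 and 13.01 in TRAP RNA and 10.29, 9.20 and 10.19 in unbound RNA, a 9.04-fold rise. The perineuronal matrix gene Tnr read 1.93 on each TRAP array and 8.59, 8.32 and 8.65 in unbound RNA, at least 5.75-fold lower, and the proteoglycan gene Vcan was at least 3.50-fold lower.

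The Hedgehog pathway, 14 genes listed, 13 measured and 11 tested, had 7 higher (63.6%) and 3 lower (27.3%), all 10 under all 4 scalings. The shares of all tested genes were 18.9% higher and 40.9% lower. The ligand gene Shh, which Purkinje cells express, was lower: it read 6.53 on each TRAP array and 8.94, 8.68 and 8.68 in unbound RNA. Of the receptor side, Ptch1 (a log2 difference of 1.07), Smo (1.00), the coreceptor gene Gas1 (2.52) and the ligand-binding antagonist gene Hhip (at least 2.06-fold) rose. The coreceptor genes Cdon and Boc fell. Boc read 5.71, 5.38 and 5.51 in TRAP RNA and 9.42, 9.89 and 9.59 in unbound RNA, at least 12.4-fold lower. Cdon read 2.16 on each TRAP array and 10.51, 10.39 and 10.70 in unbound RNA, at least 23.2-fold lower. All 3 Gli transcription factor genes rose, Gli1 as above, Gli3 by 2.73 (9.46, 9.50 and 9.45 against 6.74 on each unbound array) and Gli2 by 1.29.

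The FGF pathway, 19 listed, 18 measured and 16 tested, had 11 higher (68.8%) and 3 lower (18.8%), all 14 under all 4 scalings. The shares of all tested genes were 18.9% higher and 40.9% lower. The 3 lower calls were a ligand gene and a pair of intracellular homologues. The ligand gene Fgf9 read 8.99, 8.88 and 9.06 in TRAP RNA and 12.40, 12.50 and 12.41 in unbound RNA, a fall by 3.46. The homologues Fgf14 and Fgf12, which are not secreted, fell by 2.05 and 1.91. Receptor genes rose, with Fgfr2 at 1.95, Fgfr1 at 1.34, Fgfr3 at 1.29 and Fgfrl1 at 2.69. Genes known to be induced by FGF signalling rose too. Etv4, an ETS transcription factor, read 7.68, 8.17 and 8.98 in TRAP RNA and 2.79 on each unbound array, at least 4.84-fold, and Etv5 rose by 1.88. The feedback inhibitor genes Spry1, Spry2, Spry4 and Dusp6 rose by 1.20 to 1.46.

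The Wnt list held 36 genes, of which 35 were measured but only 17 tested. Of these 7 were higher (41.2%, against 18.9% of all tested genes) and 5 lower (29.4%, against 40.9%), with 1 lower under all 4 scalings. Beside Wif1, the ligand gene Wnt7b read 8.16, 8.40 and 8.40 in TRAP RNA and 4.62 on each unbound array, at least 4.98-fold. The receptor gene Fzd1 read 13.31, 13.06 and 13.14 against 10.18, 10.29 and 10.18, a 7.72-fold rise, whereas Fzd7 fell by 2.80. The transcription factor gene Tcf7l1 rose 8.86-fold. Axin2, a feedback target of Wnt signalling, fell by 1.23 but was not called under all 4 scalings. Its TRAP values of 7.70, 8.54 and 8.18 lay below unbound values of 9.38, 9.38 and 9.37.

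For Notch, 22 genes were listed and measured and 16 tested, 5 higher and 6 lower, of which 5 and 4 held under all 4 scalings. The lower share, 37.5%, was near the 40.9% of all tested genes. The ligand gene Jag1 rose at least 1.48-fold, the receptor gene Notch3 at least 3.00-fold, and Lfng, a glycosyltransferase that modifies Notch, read 8.69, 8.59 and 8.68 in TRAP RNA and 3.74 on each unbound array, at least 6.29-fold. The target genes differed in direction. Hes5 read 2.11 on each TRAP array and 7.17, 7.19 and 7.17 in unbound RNA, at least 2.26-fold lower, whereas Hes1 rose by 1.12. Rbpj, the DNA-binding protein of the pathway, fell by 3.46. For BMP and TGF-beta, 32 were listed and measured and 23 tested, 8 higher and 9 lower, of which 8 and 5 held under all 4 scalings. The lower share, 39.1%, was near the 40.9% of all tested genes. The pseudoreceptor gene Bambi read 11.04, 10.49 and 10.44 against 7.14 on each unbound array, an 11.4-fold rise. The target gene Id1 rose at least 2.35-fold, Id3 and Id4 rose by 1.65 and 1.77, and Id2 was not called (0.33). Tgfb2 was at least 7.91-fold lower and the coreceptor gene Tgfbr3 was 25.6-fold lower.

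Neuronal genes of the cerebellum were lower in TRAP RNA but above the minimum in part. Of 12 Purkinje neuron genes, 10 were measured and tested and all 10 were lower, where 40.9% of all tested genes were. Under all 4 scalings 9 of them were lower, where 22.7% of all tested genes were. Calb1, a calcium buffer, read 10.70, 10.76 and 11.08 in TRAP RNA and 15.65, 15.30 and 15.14 in unbound RNA, 22.8-fold lower, and Pcp2, a modulator of G proteins, read 11.38, 11.31 and 11.66 against 15.48, 14.58 and 14.50. Their summed intensity was 28000 to 33500 on TRAP arrays and 193000 to 292000 on unbound arrays. Slc1a6, the Purkinje glutamate transporter, was the 1 Purkinje gene under the minimum, at 1.97 on each TRAP array. Of 12 granule neuron genes, all tested, 10 were lower, 7 of them under all 4 scalings. The GABA-A receptor subunit gene Gabra6 read 13.37, 13.34 and 13.58 in TRAP RNA and 15.44, 15.28 and 15.10 in unbound RNA, and Gabrd read 4.09 on each TRAP array and 10.95, 11.59 and 10.75 in unbound RNA.

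Interneuron genes, 7 tested of 8 measured, were all 7 lower, 6 of them under all 4 scalings. Among all tested genes 40.9% were lower, and 22.7% under all 4 scalings. A TRAP mean under the minimum was found in 7 of the 8 interneuron genes, with Gad2 at 1.84 on each array against 9.42, 9.42 and 9.52. Gad1, which makes GABA, was the exception with 10.77, 10.70 and 10.81 in TRAP RNA and 14.63, 14.18 and 14.18 in unbound RNA. Of 12 pan-neuronal genes, all tested, 11 were lower, 10 of them under all 4 scalings, among them the neurofilament gene Nefl (52.8-fold), and the dendritic gene Map2 was not called (-0.12). Of 5 measured unipolar brush neuron genes, 3 were tested and 2 were lower, Calb2 (98.4-fold) and Eomes (21.4-fold), while Sln differed by -0.51 and turned to 0.18 without further scaling and 0.69 with quantile normalization.

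Myelin genes were mostly not called in either direction. Of 16 listed, 13 were measured and tested, 4 were higher (30.8%), 1 was lower (7.69%) and 8 were not called. The shares of all tested genes were 18.9% higher and 40.9% lower. The summed intensity was 102000 to 114000 on TRAP arrays and 83800 to 91900 on unbound arrays, and no gene of the list had a TRAP mean under the minimum. Mog, a surface protein of myelin, read 10.89, 10.16 and 10.59 in TRAP RNA and 8.86, 9.02 and 8.84 in unbound RNA, a 3.12-fold rise, and Cldn11 (3.56-fold), Opalin (3.41-fold) and Cmtm5 (9.40-fold) rose too. Mbp, the myelin basic protein gene, read 15.20, 15.09 and 15.25 against 15.30, 15.32 and 15.26. Ermn, named after its value was seen, fell by 1.51, but not under all 4 scalings. The part of oligodendrocyte RNA in the other results was not tested. Of the 6 oligodendrocyte progenitor genes tested, 4 were lower, 3 of them under all 4 scalings, led by Pdgfra (1.91 on each TRAP array against 8.79, 8.63 and 8.87), and the lineage factor gene Olig2 rose, with 6.88 on each TRAP array against 4.52, 4.23 and 3.92.

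Most markers of non-neural cells had a TRAP mean under the minimum, and many of them an unbound mean under it too. All 13 measured microglia and macrophage genes had a TRAP mean under 6. In unbound RNA 11 of them were under 6 too, so only 2 were tested. Their summed intensity was 53.6 to 53.7 in TRAP RNA against 871 to 1590 in unbound RNA. Csf1r, the growth factor receptor of these cells, read 2.15 on each TRAP array against 8.92, 10.17 and 10.15. Adgre1, described above, is not on that list and read 4.14, 4.22 and 4.34 in unbound RNA. Of 14 measured vascular genes 12 were under 6 in TRAP RNA and 11 in unbound RNA, and 4 were tested. The endothelial gene Cldn5 read 1.90 on each TRAP array against 6.13, 6.43 and 6.43. The pericyte receptor gene Pdgfrb rose, with 8.62, 8.37 and 8.51 in TRAP RNA and 5.97, 5.32 and 5.96 in unbound RNA, at least 5.65-fold. Of 8 choroid plexus genes 7 were under 6 in TRAP RNA and 4 in unbound RNA. The exception in TRAP RNA was Ttr, which fell by 7.21 with all arrays and by 4.14 without TRAP replicate 1 (adjusted p = 0.00923). Its unbound values were 16.11, 16.03 and 16.15. Of 7 measured meningeal genes 5 were under 6 in TRAP RNA and 4 in unbound RNA. All 3 tested meningeal genes were lower, where 40.9% of all tested genes were. Among these 3 was the matrix gene Dcn, at 1.86 on each TRAP array against 8.63, 8.76 and 8.85. Only 2 of the 3 were lower under all 4 scalings. The collagen gene Col1a2 differed by -1.26, but by -0.57, -0.30 and -0.41 under the other scalings. With all 7 cerebellar unbound arrays Col1a2 differed by -0.93, and in none of these alternatives was it called.

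By log2 difference, the genes with the largest rises after Wif1 were mostly near or below background in unbound RNA, so their folds are lower bounds. Cldn10, a claudin of tight junctions, read 12.32, 11.36 and 11.55 in TRAP RNA and 6.82, 5.51 and 5.51 in unbound RNA. Its rise was at least 53.5-fold, above the bound of 47.8-fold for Wif1. Tcl1b3, read by 1 probe set that can bind related transcripts, read 9.92, 10.19 and 10.19 in TRAP RNA and 2.52 on each unbound array, at least 17.2-fold. Cox7b2, an isoform of a cytochrome c oxidase subunit, was at least 14.5-fold higher, Tst, a mitochondrial sulfurtransferase, at least 10.8-fold, Dusp18, a dual-specificity phosphatase, at least 8.27-fold, and the tetraspanin gene Tspan15 at least 7.63-fold. Med9os (at least 8.81-fold), Itgb3bp (7.34), the F-box gene Fbxl7 (6.60), 2610035D17Rik (5.79) and Tex36 (5.39) complete the 12. For Tcl1b3, Tspan15, Med9os and Tex36 the 3 unbound arrays held the same value.

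The genes with the largest falls included RNAs known to stay in the nucleus or the mitochondrion. ND5, a complex I subunit encoded in the mitochondrial genome and the 1 such gene tested, read 1.84 on each TRAP array and 13.54, 13.80 and 13.42 in unbound RNA, at least 192-fold lower. Malat1, a nuclear long noncoding RNA, read 1.84, 1.84 and 1.92 in TRAP RNA and 12.89, 12.63 and 12.71 in unbound RNA, lower by at least 6.74 log2 units. The noncoding transcripts Mir124a-1hg, which hosts a neuronal microRNA, Rian, which is imprinted, and Snhg11, which hosts small nucleolar RNAs, were at least 52.7-fold, 35.5-fold and 29.1-fold lower. The others of the 12 were coding. The neuronal filament gene Ina was at least 128-fold lower, Nrsn1 at least 47.2-fold, the complement gene Cfp at least 46.2-fold, the calcium channel gene Ryr2 at least 44.7-fold, the presynaptic gene Pclo at least 42.4-fold, Plekha5 at least 25.4-fold and Plxdc1 at least 24.6-fold. Every one of these 12 genes lay under the minimum on all TRAP arrays.

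Across the 24 TRAP populations, each shifted to the same control mean but normalized separately by the authors, Bergmann glia had the highest mean for 15 of the 16 list genes. The exception was Dao, at 11.16 ± 0.56 in Bergmann glia and 11.37 ± 0.02 in cerebellar astrocytes (SD, n = 3 each), a difference within the spread. Cerebellar astrocytes came next to Bergmann glia for 12 of the 16 genes. The margins differ widely, and these levels are a description with no test. Wif1 averaged 11.58 ± 0.74 in Bergmann glia, 9.89 ± 0.50 in unipolar brush neurons, 9.59 ± 0.25 in cerebellar astrocytes and 8.94 ± 0.64 in striatal cholinergic neurons, and was under the minimum in all the others. Mybpc1 (by 1.92), Gli1 (8.28 ± 0.49 against 6.51 ± 0.05) and Vim (14.79 ± 0.11 against 13.68 ± 0.12) stood more than a log2 unit above cerebellar astrocytes. Septin4 did not: it averaged 15.87 ± 0.17 in Bergmann glia and 15.67 ± 0.05 in cerebellar astrocytes and was above the minimum in all 23 other populations. Timp4 (16.01 ± 0.09 against 15.95 on each array) and Hopx (14.18 ± 0.15 against 14.11 ± 0.08) were also level with cerebellar astrocytes within their spread. For Gria1 the next population was cortical layer 5a neurons, at 13.50 ± 0.09 against 14.05 ± 0.21 in Bergmann glia.

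**Figure D3:**
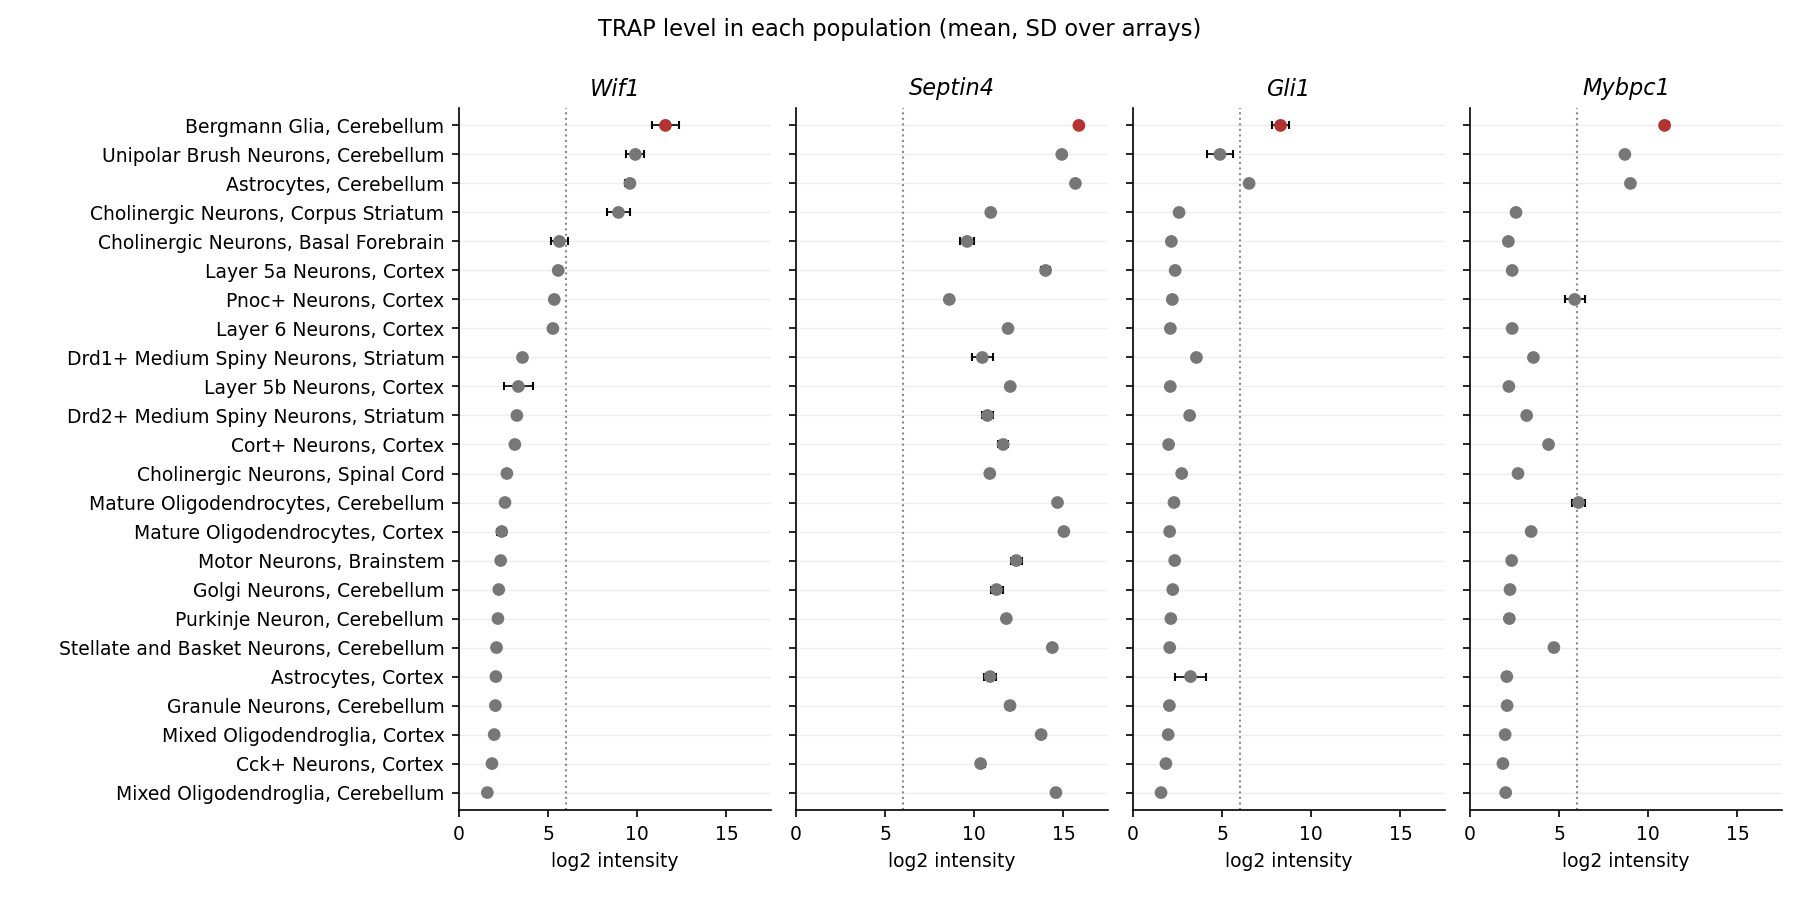
Mean log2 intensity after control scaling (x axis, bars show the SD over arrays) of Wif1, Septin4, Gli1 and Mybpc1 in each of the 24 TRAP populations (y axis, ordered by Wif1), with Bergmann glia in red and a dotted line at the minimum of 6. Wif1 reaches the minimum of 6 in 3 other populations, whereas Septin4 lies above it in all 23.

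To see where the enrichment of Bergmann glia differs from that of their neuronal neighbour, the difference of TRAP minus unbound RNA was compared with that of Purkinje neurons in 1 model. Of 10708 genes tested, 3669 had the larger difference in Bergmann glia (34.3%) and 2477 the smaller one (23.1%), together 57.4%. The counts under all 4 scalings were 2595 (24.2%) and 1969 (18.4%), and the median of all tested genes was 0.16. Of the 16 Bergmann glia genes 15 were higher, also under all 4 scalings, and Hopx was not called (0.96). Gria4 differed most among the receptors: TRAP minus unbound RNA was 2.02 in Bergmann glia and -7.73 in Purkinje neurons. Of the 28 astrocyte genes 27 were higher and Aldoc was not called (-0.52), and all 13 myelin genes were higher. All 10 Purkinje neuron genes were lower, Pcp2 by 5.09.

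The 6 genes furthest on the Bergmann side were the GTPase gene Rab34, Tlcd1, the astrocyte membrane protein gene Mlc1, Marcksl1, the scaffold gene Mpp6 and Cables1, with differences of 10.86 to 11.52. Rab34 averaged 13.83 in Bergmann TRAP RNA and 9.31 in its unbound RNA, against 2.17 in Purkinje TRAP RNA and 9.17 in its unbound RNA. The 6 furthest on the Purkinje side were 2410124H12Rik, Plxdc1, the kinase gene Nek2, the transcription factor gene Nfatc2, Tmem255a and Lmo7, with differences of -11.62 to -10.67. Nfatc2 averaged 2.56 in Bergmann TRAP RNA and 9.41 in its unbound RNA, against 12.63 in Purkinje TRAP RNA and 8.75 in its unbound RNA. Each of these genes lies under the minimum in 1 TRAP fraction, so the sizes are not measured folds.

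The same comparison with cortical astrocytes sets Bergmann glia against astrocytes of another region, with the 2 unbound arrays of cortex as their baseline. The 2 comparisons share the Bergmann arrays. Of 11058 genes tested, 1266 had the larger difference in Bergmann glia (11.4%) and 5365 the smaller one (48.5%), together 60%, and the median of all tested genes was -0.96. That median was 0.35 without further scaling, -0.10 with quantile normalization and -0.02 with centring on the median, and under all 4 scalings 1255 genes were higher (11.3%) and 1772 lower (16%). Region and cell type cannot be told apart in this contrast. Of the 16 Bergmann glia genes 7 were higher, all under all 4 scalings: Gria4 (7.86), Wif1 (7.18), Gria1 (7.16), Gli1 (3.41), Mybpc1 (3.19), Dao (2.75) and Septin4 (2.59). Hopx (-3.59) and Timp4 (-3.25) were lower under all 4 scalings, whereas Slc1a3 (-1.86), Fabp7 (-1.68), A2m (-1.59) and Ptch1 (-1.37) were lower in the control-scaled values but not under all 4. Vim (0.69), Tnc (-0.28) and Gdf10 (-0.62) were not called.

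In this contrast 11.4% of all tested genes were higher and 48.5% lower, and 11.3% and 16% under all 4 scalings. The list counts below stand beside those shares. No astrocyte gene was higher and 22 of 28 were lower, 8 of them under all 4 scalings. Among these was Gjb6 (-3.50), a gap junction gene named after its value was seen. The median of the astrocyte genes was -2.02, against -0.96 for all tested genes. Fatty acid oxidation genes had 0 higher and 16 of 18 lower (6 under all 4 scalings). Of 18 Notch genes 17 were lower (10 under all 4 scalings), with Hes5 at -8.66. Myelin genes were 9 higher and 1 lower of 13, the same under all 4 scalings, and Mog differed by 7.69. These myelin values move with the contrast, and their part in it was not tested.

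**Figure D4:**
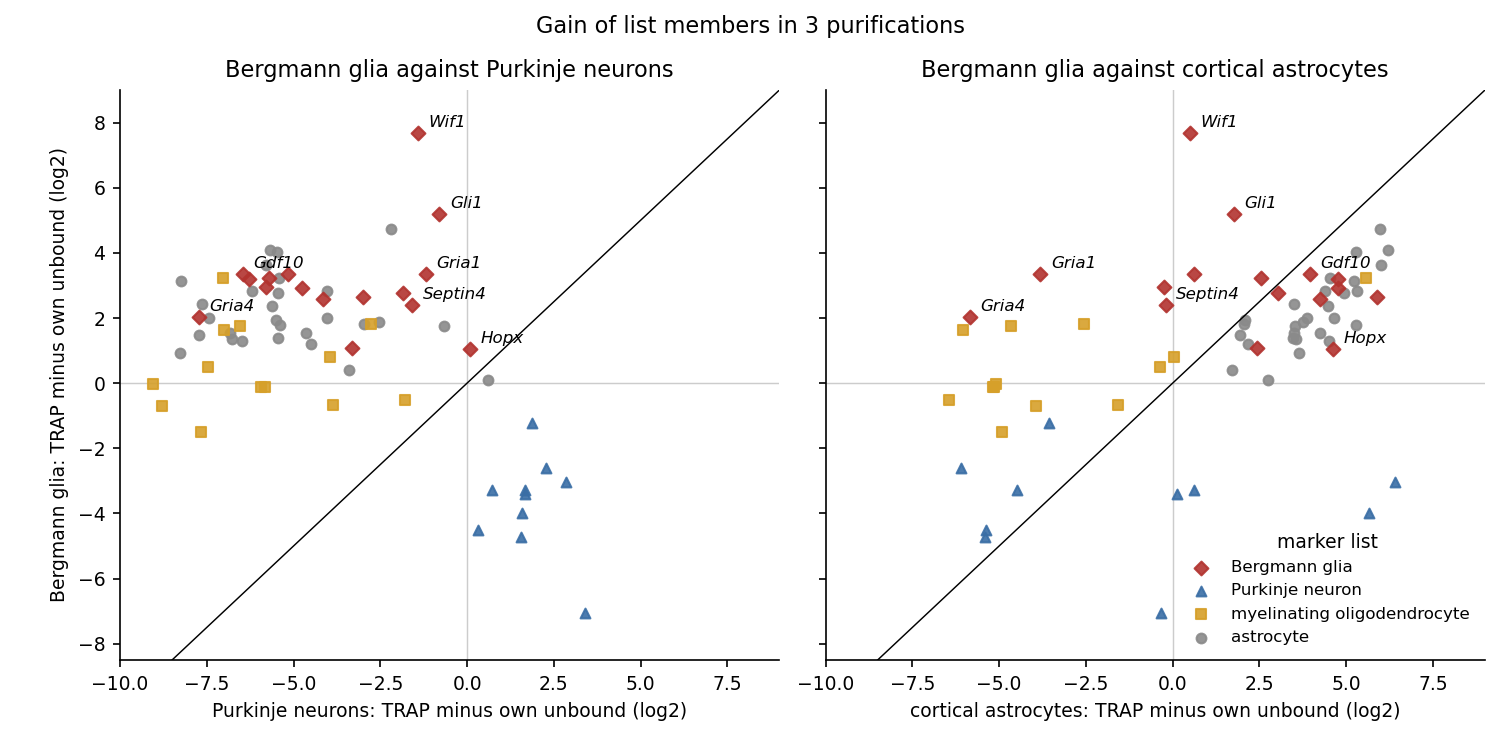
Log2 difference of TRAP minus unbound RNA in Bergmann glia (y axis) against that in Purkinje neurons or in cortical astrocytes (x axis), 1 point per gene of 4 lists, with the line of equal differences. The Bergmann glia genes Wif1 and Gria4 lie above that line in both panels (by 9.10 and 9.75, and by 7.18 and 7.86), whereas Hopx lies above it by 0.96 for Purkinje neurons and below it for cortical astrocytes (-3.59).

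The 6 genes furthest on the Bergmann side against cortical astrocytes were the receptor phosphatase gene Ptpro, Npnt, a matrix ligand of integrins, the myosin gene Myh7, the neuropeptide gene Npy, Sowaha and the cilium gene Cys1. Npy averaged 12.36 in Bergmann TRAP RNA and 7.71 in its unbound RNA, against 5.40 in cortical astrocyte TRAP RNA and 10.51 in its unbound RNA. Ptpro averaged 9.48 in Bergmann TRAP RNA and 5.67 in its unbound RNA, against 2.17 in cortical astrocyte TRAP RNA and 8.85 in its unbound RNA. The 6 on the other side were the NMDA receptor subunit gene Grin2c, Vav3, Ttr, the histidine decarboxylase gene Hdc, the signalling adapter gene Tifa and Gdpd3. Grin2c averaged 4.10 in Bergmann TRAP RNA and 10.81 in its unbound RNA, against 10.76 in cortical astrocyte TRAP RNA and 5.49 in its unbound RNA. Both parts of that contrast move, since the cerebellar unbound RNA holds the gene and the cortical one is below the minimum. Ttr differed by -11.43, and by -8.36 without Bergmann TRAP replicate 1.

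The unbound RNA of the Bergmann line was also compared with that of the Purkinje line DR168. Of 9994 genes tested, 31 were higher in the Bergmann line (0.31%) and 11 lower (0.11%), together 0.42%, with the calcium-binding protein gene Cabp7 at 1.61 and Trappc5 at -2.21, both named after their values were seen. At an adjusted p under 0.05 with no bound on the fold, 284 genes passed. Leaving out 1 array moved the counts, to 81 higher and 25 lower without Purkinje unbound replicate 2 and to 54 and 20 without Bergmann unbound replicate 1. The 3 Bergmann unbound arrays share their lowest value, and so the authors' normalization, with 4 other cerebellar unbound arrays, 3 of the Purkinje line and 1 of mature oligodendrocytes. In fits on the compared arrays alone, and with a bound of 2-fold in limma's treat, no gene was called. At an unadjusted p under 0.05, 912 genes were higher and 120 lower in the first of these, and 5 and 4 in treat.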

How the data were processed

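The authors deposited linear intensity values from Affymetrix arrays. Per the labels, the RNA was amplified with an Affymetrix kit and labelled with biotin. Per the submitters' processing notes the authors used GCRMA (version not given in the sources used here), within groups per the series text. Arrays that share a lowest value mark 30 such sets. The 3 Bergmann TRAP arrays form a set of their own, and their unbound arrays belong to another set of 7 arrays. In TRAP against unbound RNA, the fraction and the normalization set therefore cannot be told apart.

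Intensities were floored at 1, turned into log2 values and shifted per group to equal means of 18 biotinylated controls, a step the series text recommends. Of 45101 probe sets, 34958 carry 1 gene symbol, 932 several and 9211 none, and 34754 matched the RefSeq table by Entrez ID. A gene took its brightest probe set over all arrays (18194 genes, 9012 with several probe sets). Genes with a mean of at least 6 in a compared group were tested with limma 3.58.1 (R 4.3.3, package data.table, version 1.17.8), with eBayes and trend in a single fit over all arrays, Benjamini-Hochberg adjustment, and a call at an adjusted p under 0.05 and 2-fold. P-values and each SE of a difference use the spread within groups pooled over all arrays of the series, and not that of the Bergmann preparations alone. The SDs given beside them are those of the named group. Folds against a mean under 6 use 6 and are bounds. Tables and figures used Python 3.11.15, pandas 2.3.3, numpy 2.4.6 and matplotlib 3.10.9.

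Named genes are Septin4 and Wif1, the Bergmann glia list, the 12 called genes with the largest difference in each direction and no overlap, the 4 largest of each list, and 6 per direction of each contrast between populations. Others serve as examples of their list, taken after their values were seen. The members and lists were chosen with earlier results of these data known. Listed genes without a probe set of 1 symbol were not analysed here. TRAP replicates 2 and 3 were kept as separate samples. They were the closest of the pairs compared (SD of differences 0.142, with 30.8% of genes identical), against 0.166 to 0.398 for the closest pair of each other cerebellar group examined (5.63% to 32.9% identical). On simulated arrays, TRAP against unbound RNA recovered 99% of the genes shifted by 1.5 log2 units and 100% of those shifted by 3, with 3 false calls among 9446 genes. For the contrasts these were 95% and 100% with 7 of 9283 (Purkinje neurons), 86% and 99% with 3 of 9140 (cortical astrocytes) and 96% and 99% with 0 of 9944 (unbound RNA). The simulated arrays had independent normal noise with the fitted spread. The compared groups had equal means except for 100 genes shifted by each size, all at least 3 log2 units above the minimum. No difference in scaling or normalization was simulated. These rates therefore do not cover genes near the minimum, identical values or the dependence on scaling. The alternatives were other scalings, filters, probe set rules, tests and array sets, the replicate number as a block, and each replicate left out. After the data were seen, genes with identical values on all arrays of a group were also left out.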

Additional observations from a re-analysis of the deposited data

Results flagged for a closer look

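The difference of TRAP minus unbound RNA was itself tested between populations, and the results below passed that test. Against Purkinje neurons, 3669 genes had the larger difference in Bergmann glia and 2477 the smaller one. The 12 named genes were Rab34 (11.52), Tlcd1 (11.52), Mlc1 (11.38), Marcksl1 (11.05), Mpp6 (11.005) and Cables1 (10.86) on the Bergmann side, and 2410124H12Rik (-11.62), Plxdc1 (-11.09), Nek2 (-10.75), Nfatc2 (-10.73), Tmem255a (-10.71) and Lmo7 (-10.67) on the other. The astrocyte membrane protein gene Mlc1 averaged 13.30 in Bergmann TRAP RNA and 10.17 in its unbound RNA, against 2.12 in Purkinje TRAP RNA and 10.36 in its unbound RNA.

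Against cortical astrocytes, 1266 genes had the larger difference in Bergmann glia and 5365 the smaller one. The named genes were Ptpro (10.50), Npnt (10.42), Myh7 (10.26), Npy (9.75), Sowaha (9.32) and Cys1 (8.93) on the Bergmann side, and Grin2c (-11.98), Vav3 (-11.79), Ttr (-11.43), Hdc (-11.09), Tifa (-10.66) and Gdpd3 (-10.42) on the other. Hdc averaged 2.39 in Bergmann TRAP RNA and 8.03 in its unbound RNA, against 7.33 in cortical astrocyte TRAP RNA and 1.88 in its unbound RNA. The 24 named genes kept their call under all 4 scalings.

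Probe sets with no gene symbol, which no comparison above uses, also differed: of 1333 tested, 166 were higher in Bergmann TRAP RNA than in unbound RNA (12.5%) and 814 were lower (61.1%).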

How the results depend on the processing

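For Bergmann TRAP against unbound RNA, the higher calls (1982) were 3325 without further scaling, 3033 with quantile normalization and 3592 with median centring. The lower calls (4290) were 2891 without further scaling, 2891 with quantile normalization and 2476 with median centring. Leaving out each replicate gave 1938 to 2047 higher and 4265 to 4348 lower. Against Purkinje neurons, higher calls (3669) were 4295 without further scaling, 2923 with quantile normalization and 2749 with median centring. The lower calls there (2477) were 1998, 2975 and 4022 in that order, and leaving out a replicate gave 3621 to 3735 higher and 2421 to 2571 lower. Against cortical astrocytes, higher calls (1266) were 3402 without further scaling, 2382 with quantile normalization, 2439 with median centring, 825 with the mean of all probe sets and 824 with treat. Lower calls there (5365) were 1901, 2659 and 2567 under those 3 scalings, 11264 with no expression filter and 3374 with treat. Leaving out a replicate gave 1236 to 1281 higher and 5240 to 5516 lower.

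For unbound RNA of the Bergmann and Purkinje lines, higher calls (31) were 19 without further scaling, 15 with median centring, 53 with no filter, 16 with a minimum of 8, 17 with the mean of all probe sets, and 0 with limma's treat and on the compared arrays alone. At an unadjusted p under 0.05, treat had 5 higher and 4 lower, and the compared arrays 912 and 120. Lower calls (11) were 24 with quantile normalization, 7 with a minimum of 8, 5 with the mean of all probe sets, and 0 with treat and on the compared arrays. Leaving out a replicate gave 25 to 81 higher and 8 to 25 lower, with 54 and 20 without Bergmann unbound replicate 1 and 81 and 25 without Purkinje unbound replicate 2.

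Among the named genes of all comparisons, 4 turned direction: Sln (0.18 without further scaling and 0.69 with quantile normalization), Rgs5 (0.10 with quantile normalization and 0.12 with median centring), and, with the mean of all probe sets, Mybpc1 (-0.92) and Ptch1 (-0.11). The cause was not tested. Of the named genes, Col1a2, Dhcr7, Hopx, Ldha and Ptch1 missed the call under treat. Without genes that hold identical values on all arrays of a group, 1618 higher and 2964 lower genes were called, since fewer genes were tested; 1690 of the 6272 calls rest on such genes, whose spread is narrowed.

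The replicate numbers were not taken to pair TRAP and unbound arrays: deviations of same-numbered arrays correlated at 0.190, 0.0319 and 0.125, and TRAP replicate 2 correlated best with unbound replicate 3 (0.215). With the number as a replicate block, the calls were 1982 higher and 4290 lower for TRAP against unbound RNA, 3669 and 2478 against Purkinje neurons, and 1266 and 5365 against cortical astrocytes.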

Other observations

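Long noncoding RNAs did not all follow Malat1. Of 232 tested, 83 were higher in Bergmann TRAP RNA than in unbound RNA (35.8%) and 90 lower (38.8%), against 18.5% and 40.9% of 10186 protein-coding genes. Under all 4 scalings the counts were 82 higher (35.3%) and 44 lower (19%), against 18.3% and 22.8% of protein-coding genes. Meg3, an imprinted noncoding RNA of the same cluster as Rian, read 6.97 on each TRAP array and 14.34, 14.29 and 14.27 in unbound RNA. Neat1, the scaffold of nuclear paraspeckles, read 5.82, 5.60 and 5.34 against 8.88, 8.77 and 9.12.

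Among 3 genes of the sex chromosomes, the Y-linked gene Eif2s3y read 8.88, 8.72 and 8.72 in TRAP RNA and 2.52, 6.34 and 9.45 in unbound RNA, and Kdm5d read 6.26, 6.61 and 6.61 in TRAP RNA and 2.52, 2.52 and 6.98 in unbound RNA. The third, the noncoding RNA Xist, which silences an X chromosome in females, read 1.84 on each TRAP array and 7.18, 7.18 and 6.17 in unbound RNA. The labels do not give the sex of the animals. All genes in this section were chosen after their values were seen.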
